A study of Mus musculus with 7 samples.

Results

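The 39 genes described here encode proteins that remove platinum adducts and crosslinks from DNA, or that let cells copy DNA past them. They were listed by name from knowledge of these pathways: nucleotide excision repair, the Fanconi anemia pathway, structure-specific nucleases, homologous recombination, translesion polymerases and damage checkpoints. Earlier results of these data were known when they were listed. All 39 were found, each once, among the 54532 genes of the deposited count table, and 36 had enough reads to be tested. Mismatch repair was also named in the description of the set, but 0 of the 39 genes belong to it, and its genes are counted below with the other repair genes.

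Cisplatin binds mainly to guanine and links neighbouring bases within a strand or, more rarely, the 2 strands to each other. Nucleotide excision repair finds links within a strand and cuts out the damaged piece. Links between strands block replication, and dividing cells resolve them through the Fanconi anemia pathway, nucleases, translesion polymerases and homologous recombination. In the kidney, cisplatin accumulates in the proximal tubule, whose cells rarely divide at rest.

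RNA was sequenced from whole kidney of C57BL/6J mice 6 to 8 weeks old, male according to the series' design text. Every animal was given cisplatin at 20 mg/kg through the tail vein, so both groups carry the injury and no uninjured kidney was analysed here. The 4 saline libraries came from animals given saline, and the 3 DXZ libraries from animals given DXZ, an agent the labels do not spell out. DXZ also went into the tail vein, at 40 mg/kg, 30 min ahead of cisplatin and again every 24 h over 3 days. The labels do not say whether each library came from its own animal, so p-values measure the spread between these samples.

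The libraries held between 16058157 and 18133736 counts, and between 20803 and 21827 genes were detected in each. Kidney identity was checked with nephron markers. All 15 proximal tubule markers and all 8 podocyte markers had reads in every library. Summed over the list, the proximal tubule markers lay between 11267 and 37504 CPM (counts scaled to a common library size) in saline and between 5993 and 9282 CPM in DXZ. By the test described next, 9 of these 15 markers fell in DXZ and 5 of 14 markers of injured tubule rose. Kap, not called by that test (adjusted p = 0.364), weighed heavily on the proximal tubule sums. It held 1730 to 18073.5 CPM in saline and 2212 to 4289 CPM in DXZ. Library saline 1 stood apart from the other saline libraries: it was highest of all 7 for 12 of the 15 proximal tubule markers, and without it the saline sums lay between 11267 and 18367 CPM and 6 of 15 fell. Of the proximal tubule markers, 3 fell without saline 2 and 1 without DXZ 3, and without saline 4 or without DXZ 2, 0 of either list were called. Over all tested genes, only 4 were called without saline 4 and 1 without DXZ 2, against 853 with every library. The median log2 fold change of DXZ over saline was then -1.65 and -1.42 for proximal tubule markers, against -1.64 with every library. For injured tubule markers it was 1.04 and 0.95, against 1.09. Library DXZ 1 also stood apart: it held the highest level of 24 of the 33 tested genes of cycling cells and of 11 of 14 macrophage markers. Of the 36 tested repair genes, 5 were highest in DXZ 1 (13.9%), against 18.7% of all tested genes. In a whole-kidney sample, fewer cells of a type and less RNA per cell cannot be told apart.

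Of the 36 tested repair genes, 2 rose in DXZ and 0 fell. They were Ercc1, a subunit of the nuclease that cuts on the 5′ side of the lesion, and Mad2l2, a subunit of translesion polymerase zeta. The test was edgeR's quasi-likelihood F test over 15351 genes, with a call at a Benjamini-Hochberg adjusted p below 0.05. Over all tested genes, 5.56% were called, 3.24% higher and 2.31% lower in DXZ, so the repair genes were called at about the background share. At an unadjusted p below 0.05 by the same test, 4 repair genes were higher and 1 was lower, 5 of 36 in all, against 25.4% of all genes. The levels of the groups did not overlap for 7 of the 36, 5 higher and 2 lower in DXZ, against a background of 24.1% (12.8% higher and 11.3% lower).

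Changes among the repair genes were mostly small. The median log2 fold change of DXZ over saline was 0.09 for the repair genes and 0.01 for all tested genes, and 20 of the 36 were positive and 16 negative. Without DXZ 2 the median of the repair genes was 0.028. Regardless of sign, the median size was 0.17 for the repair genes and 0.26 for all genes. A change of more than 1.5-fold was estimated for 4 of 36 (11.1%), against 20.0% of all genes. These shares describe the list and were not tested.

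**Figure D1:**
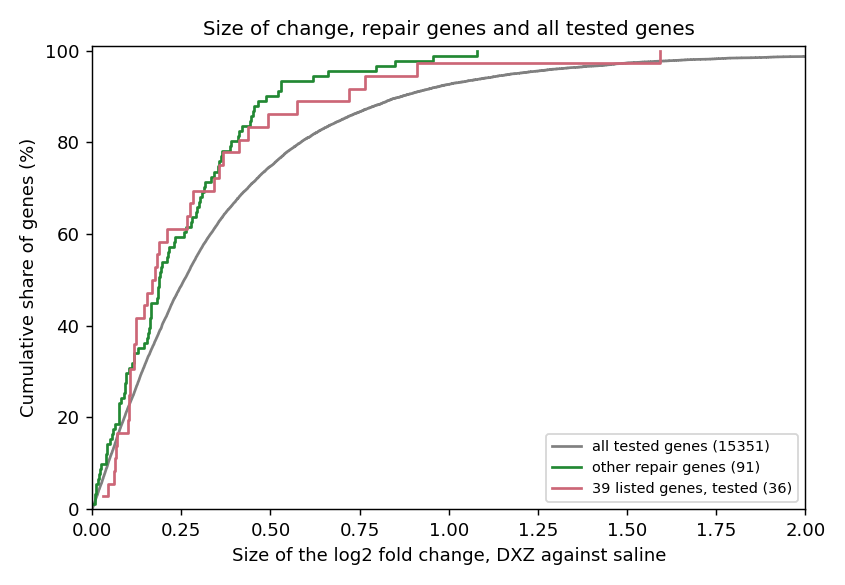
Cumulative share of genes (%) against the size of the log2 fold change between DXZ and saline, regardless of sign, for the 36 tested repair genes, 91 other repair genes and all 15351 tested genes. Genes with larger changes lie beyond the end of the axis. The curves of both repair lists rise ahead of that of all genes over most of the range, with medians of 0.17 and 0.19 against 0.26.

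Levels per gene length, as deposited FPKM (fragments scaled to gene length and 1 constant per library), spanned a wide range across the set. The highest was Ddb1 at a mean of 86.9 FPKM over the 7 libraries, and the lowest was Fancd2 at 0.0647 FPKM. Means were at least 5 FPKM for 8 genes, from 1 to 5 for 15, from 0.3 to 1 for 8 and under 0.3 for 8. Lesion recognition and excision genes made up 5 of the 8 highest (Ddb1, Ercc3, Xpa, Xpc and Ercc1), beside Mad2l2, Usp1 and Fance. Ercc1 stood there through its DXZ values: by the saline means alone, Slx4 (5.09 FPKM) and Fance (4.63 FPKM) lay above Ercc1 (4.53 FPKM), and 4 of the 8 highest were recognition or excision genes. The recombination and crosslink genes Brca1, Brca2, Palb2, Brip1, Eme1, Fanci and Fancd2 and the checkpoint kinase gene Chek1, many of them active mainly in dividing cells, formed the lowest group.

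**Figure D2:**
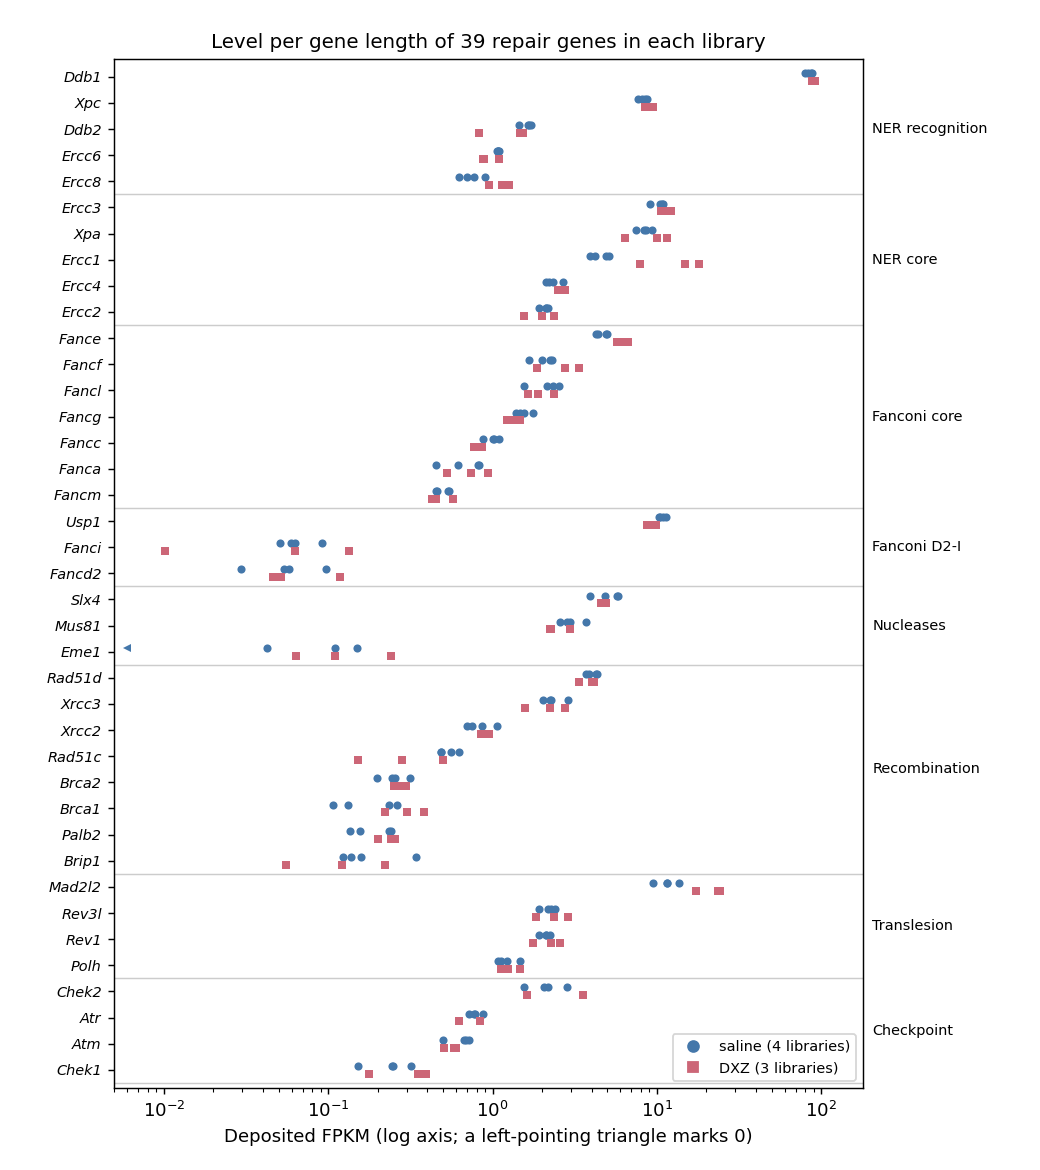
Deposited FPKM (log axis) of each of the 39 repair genes in each library, grouped by role, with circles for the 4 saline libraries and squares for the 3 DXZ libraries. Ddb1 lies highest, and the DXZ values of Ercc1 and Mad2l2 all lie above their saline values.

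Among the genes that recognise lesions, 0 of 5 passed the test. Ddb1 and Ddb2 form the UV-DDB complex, which recruits Xpc, the sensor that starts repair across the genome. Ddb1 also serves cullin-4 ubiquitin ligases with many substrates. Its level was 79.8, 82.8, 86.7 and 88.2 FPKM in saline and 87.5, 91.7 and 91.8 FPKM in DXZ. The saline 4 and DXZ 1 values overlap in FPKM, which carries its own scaling constant per library. On the TMM-scaled CPM used for the count of separated groups, every DXZ library was higher. The difference was small, with a log2 fold change of 0.10 ± 0.09 (SE) and an adjusted p of 0.532. Xpc lay between 7.65 and 8.65 FPKM in saline and between 8.42 and 9.50 FPKM in DXZ, with overlap (log2 fold change 0.11, adjusted p = 0.490).

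Ddb2, a p53 target in human cells, was 1.65, 1.45, 1.71 and 1.66 FPKM in saline and 0.826, 1.53 and 1.46 FPKM in DXZ. The value in DXZ 1 was far below the other six, and the rest overlapped (log2 fold change -0.34, adjusted p = 0.439). Ercc6 and Ercc8 encode CSB and CSA, which act when RNA polymerase stalls at a lesion in a transcribed gene. Ercc8 was 0.625, 0.771, 0.904 and 0.6996 FPKM in saline and 0.950, 1.25 and 1.14 FPKM in DXZ. All 3 DXZ values were above all 4 saline values, but the log2 fold change of 0.58 ± 0.19 (SE) did not pass (adjusted p = 0.104). Ercc6 varied least among the saline libraries, between 1.07 and 1.09 FPKM, and lay between 0.875 and 1.10 FPKM in DXZ (log2 fold change -0.17, adjusted p = 0.446).

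Downstream of recognition, 1 of 5 excision genes passed. Xpb and Xpd, encoded by Ercc3 and Ercc2, are the helicases of TFIIH that open the DNA, Xpa checks the lesion, and the dimer of Ercc1 and Xpf (Ercc4) makes the 5′ cut. The same dimer also acts in unhooking crosslinks between strands. Ercc1 was 4.18, 4.91, 5.11 and 3.90 FPKM in saline and 14.9, 18.04 and 7.84 FPKM in DXZ. The groups did not overlap, and the DXZ libraries differed widely among themselves, DXZ 3 being the lowest. In CPM, Ercc1 rose from 14.1 ± 1.86 (SD, n = 4) to 42.6 ± 16.3 (SD, n = 3). Its log2 fold change by edgeR was 1.59 ± 0.26 (SE), 3.01-fold, with an unadjusted 95% interval of 0.99 to 2.19 and an adjusted p of 0.0223.

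Ercc4, whose protein Ercc1 needs as its catalytic partner, did not pass. It was 2.69, 2.11, 2.346 and 2.20 FPKM in saline and 2.50, 2.49 and 2.78 FPKM in DXZ, with overlap (log2 fold change 0.15 ± 0.13 SE, adjusted p = 0.489). The ratio of Ercc1 to Ercc4 in FPKM was 1.55, 2.33, 2.18 and 1.78 in saline and 5.97, 7.25 and 2.82 in DXZ. Every DXZ ratio was above every saline ratio, and DXZ 3 lay close to saline 2. The pair was chosen after its values were seen, so the ratio is given as a description only. It also carries the difference in Ercc1 already given and is no separate result. Ratios of pairs without a called gene separated too: Ercc8 to Ercc6 (0.573 to 0.843 in saline, 1.04 to 1.41 in DXZ) and Ddb1 to Ddb2 (48.5 to 57.3 and 59.96 to 106). Those of Rad51d to Rad51c and of Mus81 to Eme1 overlapped.

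The other excision genes showed smaller differences. Ercc3 lay between 9.07 and 10.8 FPKM in saline and between 10.6 and 12.2 FPKM in DXZ (log2 fold change 0.17, adjusted p = 0.340). Xpa was 9.33, 7.48, 8.62 and 8.33 FPKM in saline and 6.37, 11.6 and 10.02 FPKM in DXZ, so that DXZ held both its lowest and its highest value (log2 fold change 0.15, adjusted p = 0.691). Ercc2 lay between 1.91 and 2.18 FPKM in saline and between 1.56 and 2.353 FPKM in DXZ (log2 fold change -0.07, adjusted p = 0.848).

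Ercc1 lies on chromosome 7 from 19344778 to 19356524 on the plus strand (GRCm38 coordinates, as in the deposited tables), within 30 kb of 3 other tested genes. Cd3eap, a subunit gene of RNA polymerase I, lies on the opposite strand, and 106 of the 3111 exon bases of Ercc1 overlap it. Whether reads were counted by strand is not given in the sources used here. Cd3eap did not pass (log2 fold change -0.04, adjusted p = 0.918), nor did Ercc2, which is itself 1 of the 39 genes. Ppp1r13l, which encodes the p53-binding protein iASPP, was 8.43, 9.69, 9.22 and 8.87 CPM in saline and rose to 18.4, 18.6 and 16.9 CPM in DXZ, a log2 fold change of 0.99 with an adjusted p of 0.0204. These neighbours were taken by distance alone.

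In the translesion group 1 of 4 genes passed. Polymerase zeta joins the catalytic subunit Rev3l with Mad2l2 (Rev7), Rev1 is its scaffold, and Polh encodes polymerase eta, which inserts bases opposite platinum-linked guanines. Mad2l2 also belongs to shieldin, which limits the resection of broken ends, and to mitotic regulation. Mad2l2 was 9.46, 11.6, 13.6 and 11.5 FPKM in saline and 17.3, 23.6 and 24.1 FPKM in DXZ. All 3 DXZ values were above the highest saline value. In CPM, Mad2l2 rose from 30.4 ± 4.52 (SD, n = 4) to 57.1 ± 9.41 (SD, n = 3), a log2 fold change of 0.91 ± 0.15 (SE), 1.88-fold, with an unadjusted 95% interval of 0.56 to 1.27 and an edgeR adjusted p of 0.0240.

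The genes of its partners did not pass. Rev3l was 1.91, 2.17, 2.40 and 2.25 FPKM in saline and 1.84, 2.88 and 2.37 FPKM in DXZ (log2 fold change 0.12, adjusted p = 0.680). Rev1 was 2.13, 2.12, 2.24 and 1.92 FPKM in saline and 1.76, 2.56 and 2.26 FPKM in DXZ (log2 fold change 0.06, adjusted p = 0.837). For both genes the lowest value was in DXZ 1 and the highest in DXZ 2. Polh lay between 1.07 and 1.47 FPKM in saline and between 1.12 and 1.47 FPKM in DXZ (log2 fold change 0.07, adjusted p = 0.849). The ratio of Mad2l2 to Rev3l in FPKM, chosen after its values were seen, was 4.96, 5.34, 5.69 and 5.09 in saline and 9.39, 8.19 and 10.2 in DXZ. These ratios did not overlap between groups. Within 30 kb of Mad2l2 lie Fbxo6, Fbxo44 and Fbxo2, genes of F-box proteins, with log2 fold changes of 0.45, -0.39 and 0.52 (adjusted p = 0.145, 0.305 and 0.436).

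**Figure D3:**
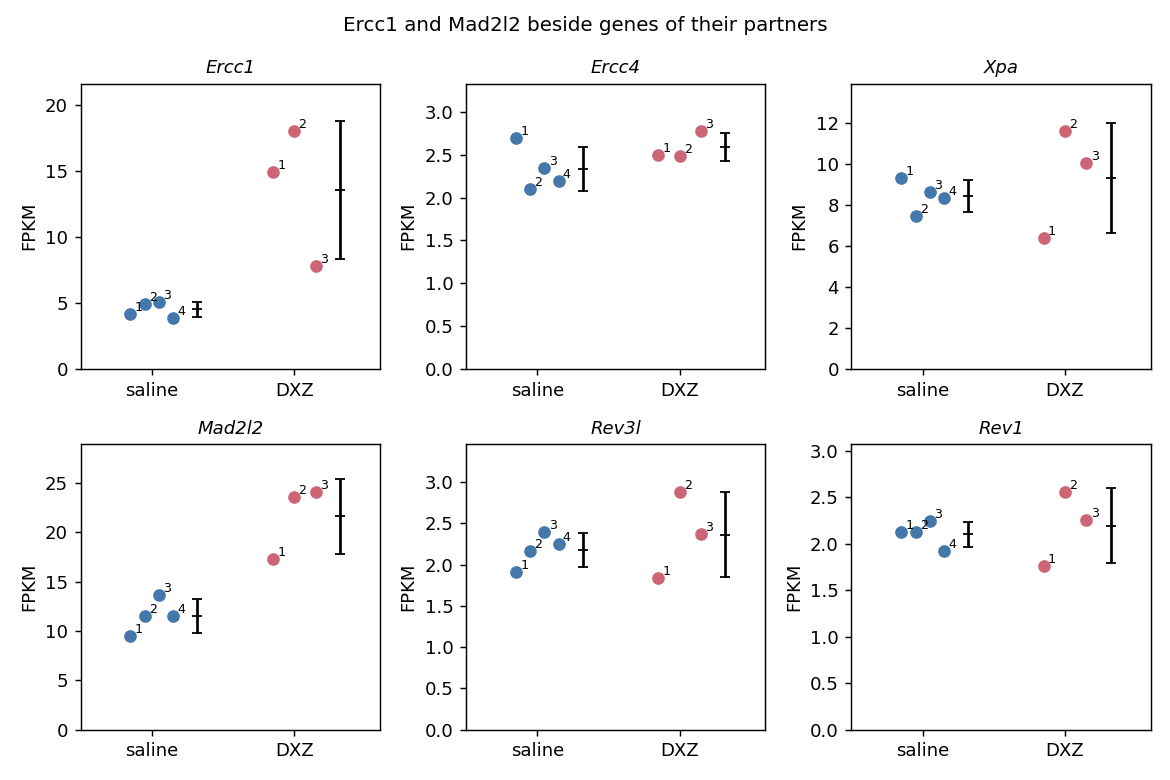
FPKM in each library (points, numbered by library) for Ercc1 with Ercc4 and Xpa, and for Mad2l2 with Rev3l and Rev1, with the mean and SD of 4 saline and 3 DXZ libraries as bars. The groups are separate for Ercc1 and Mad2l2 and overlap for the 4 partner genes.

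Under the 17 alternative settings, every estimate of both genes was higher in DXZ, and leaving out 1 library could end either call. The log2 fold change of Ercc1 lay between 1.33 and 1.87 and that of Mad2l2 between 0.83 and 1.04. With 1 library left out, Ercc1 missed the edgeR threshold without saline 4 (1.52, adjusted p = 0.0819) and without DXZ 2 (1.33, adjusted p = 0.0741). Mad2l2 missed it without saline 2 (adjusted p = 0.0547), saline 4 (0.0867), DXZ 2 (0.0887) or DXZ 3 (0.0761), at log2 fold changes of 0.91, 0.91, 0.84 and 0.83. Over all tested genes, only 4 were called without saline 4 and 1 without DXZ 2, against 853 with every library. Ercc1 and Mad2l2 both passed when saline 1 and DXZ 1 were dropped together (1.47 and 0.96).

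Several marker lists held called genes alongside Ercc1 and Mad2l2, besides the proximal tubule list given above. Markers of injured tubule summed to between 8665 and 24616 CPM in saline and between 23325 and 37888 CPM in DXZ, with overlap. Most of each sum was Spp1, at 6465 to 20087 CPM in saline and 16663 to 27621 CPM in DXZ. Spp1 was not called (log2 fold change 0.47, edgeR adjusted p = 0.526). Of 20 textbook p53 targets, 3 rose (Gdf15, Btg2 and Aen) and 0 fell, and the list summed to between 2180 and 3432 CPM in saline and between 4044 and 5149 CPM in DXZ. All 20 estimates were positive. At an unadjusted edgeR p below 0.05, 14 were higher and 0 lower, against 25.4% of all genes in either direction. For 11 the groups did not overlap, all higher in DXZ, against 12.8% of all genes. Saline 1 was the lowest library for 18 of the 20 targets. Without it the saline sums lay between 2969 and 3432 CPM and 3 targets still passed, whereas 0 passed without saline 4, DXZ 2 or DXZ 3. Over all tested genes, only 4 were called without saline 4 and 1 without DXZ 2. Cdkn1a and Mdm2 did not pass (log2 fold changes 0.90 and 0.49, adjusted p = 0.189 and 0.116). Nor did Ccng1, the highest of the 20 in every library (log2 fold change 0.17, adjusted p = 0.588). The part of these lists in the 2 results was not tested.

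Mad2l2 is shown by sequence because it is 1 of the 2 genes called and part of its promoter window lies outside annotated exons. The stretch below covers chr4:148130699-148130914 of GRCm38.p6 on the plus strand, bases 221 to 6 before a RefSeq start of Mad2l2. The deposited tables place the gene on chromosome 4 from 148130384 to 148145699, so the stretch lies inside the annotated gene. Capitals mark its 2 GC boxes, GGGCGG on either strand, the site known for binding Sp1.
Mad2l2: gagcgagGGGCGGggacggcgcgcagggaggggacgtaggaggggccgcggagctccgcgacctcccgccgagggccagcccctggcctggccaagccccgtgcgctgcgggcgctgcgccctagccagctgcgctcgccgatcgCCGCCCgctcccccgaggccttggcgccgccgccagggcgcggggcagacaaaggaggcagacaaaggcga

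RefSeq start-site windows were found for 31 of the 39 genes, 33 windows in all, and the 250 bases before each start were searched on both strands. The GC box stood in 20 of 33 windows (60.6%), against 32.7% of all 32851 windows searched over the same 250 bases, and the CCAAT box (CCAAT) in 16 (48.5%), against 33.8%. The window of Ercc1 also held a GC box, and that of a second RefSeq start of Mad2l2 held 1 GC box and 1 CCAAT box. The bases searched in both these windows lie wholly in annotated exons. An AP-1 element (TGANTCA) stood in 0 of 33 windows, against 6.75% of all. An antioxidant response element (TGACNNNGC) stood in 4 (12.1%), those of Brca2, Fancf, Fancl and Rev1, against 10.2% of all. An E2F element (TTTGGCGC or TTTCGCGC) stood in 0, against 0.654%. Such matches describe the letters in these windows and do not show binding.

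In the Fanconi anemia pathway, 0 of 8 tested genes passed. The core complex (Fanca, Fancc, Fance, Fancf, Fancg, Fancl and Fancm) attaches ubiquitin to the pair of Fancd2 and Fanci at a stalled fork, Fancl being the ligase and Fancm the part that binds the fork, and Usp1 removes it again. Fance, which links the core to Fancd2, was 4.91, 4.29, 4.97 and 4.37 FPKM in saline and 5.70, 6.08 and 6.67 FPKM in DXZ. Every DXZ value was above every saline value, and the log2 fold change of 0.41 ± 0.12 (SE) missed the threshold (edgeR adjusted p = 0.0736), the lowest adjusted p of the 34 genes not called. Fancc was 0.880, 1.10, 1.02 and 1.01 FPKM in saline and 0.771, 0.842 and 0.865 FPKM in DXZ, every DXZ value being below the saline values (log2 fold change -0.28, adjusted p = 0.291). The other core genes overlapped between the groups. Their log2 fold changes were 0.37 for Fancf, 0.12 for Fanca, -0.03 for Fancm, -0.12 for Fancl and -0.18 for Fancg, with adjusted p between 0.399 and 0.941.

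Usp1, which removes ubiquitin from Fancd2 and from PCNA, was 10.9, 11.4, 10.4 and 10.3 FPKM in saline and 9.17, 9.90 and 8.71 FPKM in DXZ. The groups did not overlap. The log2 fold change of -0.21 ± 0.09 (SE) did not pass (adjusted p = 0.180). The genes of its substrate pair were near the limit of detection and had too few reads for a test. Fancd2 had 8, 13, 7 and 4 reads in saline and 17, 6 and 7 in DXZ, and Fanci had 6, 9, 6 and 5 in saline and 14, 6 and 1 in DXZ. Both were highest in DXZ 1, the library that was highest for most genes of cycling cells.

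The 2 tested nuclease genes overlapped between groups. Slx4 is the scaffold that holds the nucleases at a crosslink, and Mus81 cuts branched DNA together with Eme1. Slx4 lay between 3.92 and 5.84 FPKM in saline and between 4.58 and 4.92 FPKM in DXZ (log2 fold change -0.11, adjusted p = 0.694), and Mus81 between 2.56 and 3.71 FPKM and between 2.24 and 2.97 FPKM (log2 fold change -0.27, adjusted p = 0.408). Eme1 was too low to test, with 0, 7, 5 and 2 reads in saline and 12, 5 and 3 in DXZ. Mus81 transcripts were thus readily measured in every library while those of its partner were at or near 0.

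Homologous recombination was represented by 8 genes, and 0 passed. Brca1 and Palb2 bring Brca2 to the break, Brip1 is a helicase bound to Brca1, and Rad51c, Rad51d, Xrcc2 and Xrcc3 form complexes that help the broken strand pair with its homologous copy. Brca1 was 0.107, 0.263, 0.235 and 0.131 FPKM in saline and 0.304, 0.384 and 0.220 FPKM in DXZ, with overlap (log2 fold change 0.72 ± 0.39 SE, adjusted p = 0.290). Rad51c was 0.559, 0.485, 0.623 and 0.483 FPKM in saline and 0.503, 0.152 and 0.281 FPKM in DXZ. DXZ 1 lay within the saline range and the other DXZ libraries below it (log2 fold change -0.76 ± 0.41 SE, adjusted p = 0.281). Brip1 was 0.138, 0.340, 0.122 and 0.158 FPKM in saline and 0.222, 0.122 and 0.0552 FPKM in DXZ, with saline 2 well above the rest (log2 fold change -0.49 ± 0.56 SE, adjusted p = 0.631).

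The remaining recombination genes differed less. The log2 fold changes were 0.28 for Palb2, 0.10 for Brca2, 0.12 for Xrcc2, -0.10 for Xrcc3 and -0.06 for Rad51d, with adjusted p between 0.627 and 0.827. Rad51d, at a mean of 3.95 FPKM, and Xrcc3, at 2.29 FPKM, stood well above Brca2 at 0.261 FPKM and Brca1 at 0.235 FPKM.

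Among the checkpoint kinases, 0 of 4 passed. Atr responds to stalled forks and activates Chek1, and Atm responds to broken ends and activates Chek2. Chek2 was 2.17, 2.85, 1.56 and 2.06 FPKM in saline and 3.54, 3.56 and 1.63 FPKM in DXZ, with DXZ 1 and DXZ 2 above all saline libraries and DXZ 3 among them (log2 fold change 0.44 ± 0.32 SE, adjusted p = 0.427). Chek1 was 0.246, 0.318, 0.249 and 0.152 FPKM in saline and 0.392, 0.353 and 0.178 FPKM in DXZ, with the same arrangement (log2 fold change 0.36, adjusted p = 0.623). Both effector kinases thus varied within DXZ by more than the difference between group means. Atr and Atm had log2 fold changes of -0.04 and -0.19 (adjusted p = 0.876 and 0.580).

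For the 34 tested genes that were not called, the adjusted p lay between 0.0736 and 0.941. Their unadjusted 95% intervals stayed within 2-fold for 27 and within 1.5-fold for 14. The intervals of Chek2, Ercc8, Rad51c, Chek1, Brca1, Palb2 and Brip1 reached 2-fold, so a change of that size lay within their intervals at this depth and number of libraries. On simulated counts modelled on these libraries, edgeR called 43.2% of the genes given a 2-fold change and 80.8% of those given a 4-fold change. Far fewer genes were changed in each simulated set than the 853 called here, which makes the adjusted threshold stricter. These shares may therefore understate what the test could call over all genes. The changed genes were drawn at random from all 15351 tested. The shares thus do not show what could be called for genes with few reads, such as Chek1 and Brip1 (mean saline counts 19 and 24).

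**Figure D4:**
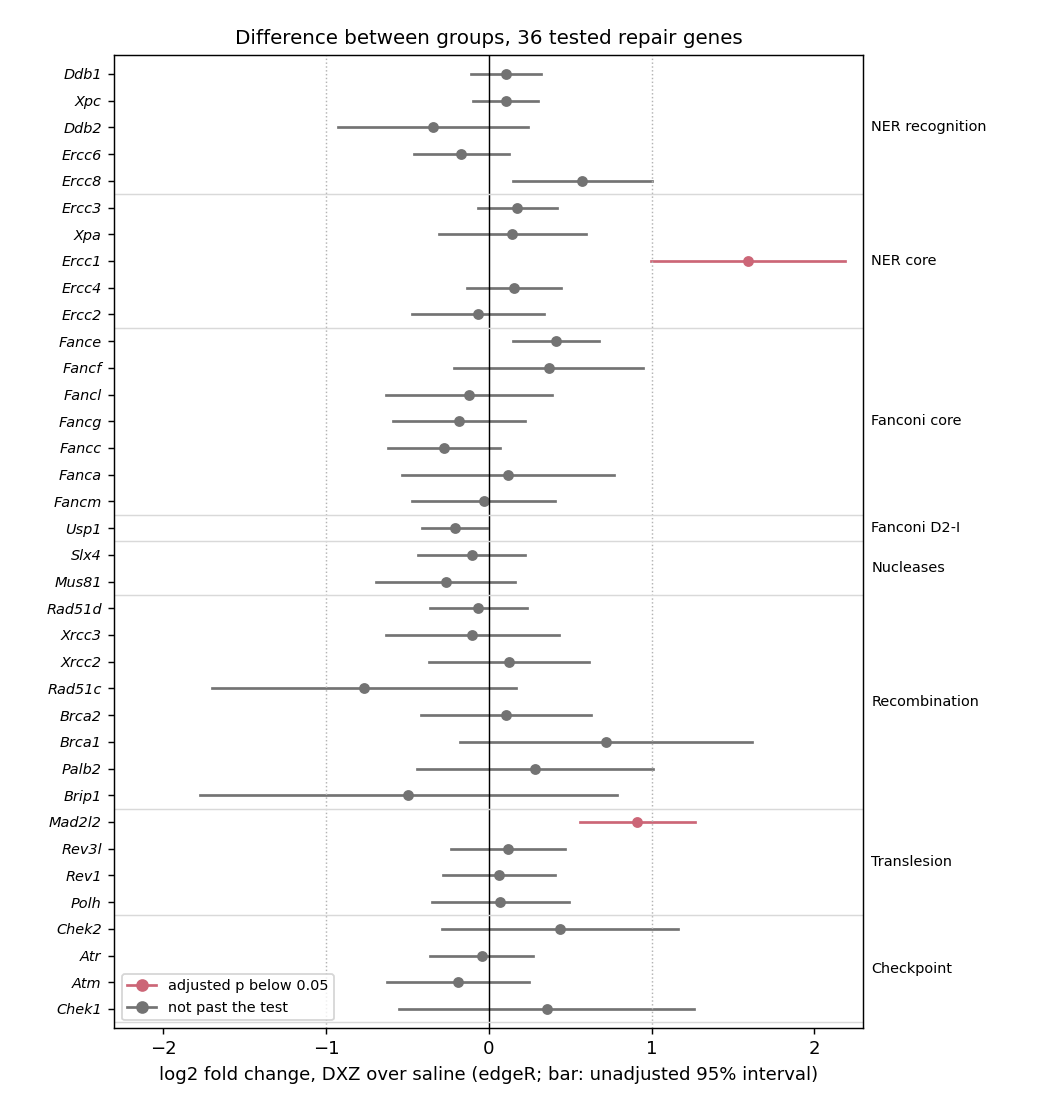
Log2 fold change of DXZ over saline by edgeR for the 36 tested repair genes, grouped by role, with unadjusted 95% intervals as bars and dotted lines at 2-fold. Only Ercc1 and Mad2l2, in red, had an adjusted p below 0.05, at 0.0223 and 0.0240.

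A further 98 genes of the same pathways and of damage signalling were examined beside the set. Of these, 91 were tested and 0 passed in either direction by edgeR, against 3.24% and 2.31% of all genes. At an unadjusted p below 0.05, 15 were higher and 5 lower, 20 of 91 against 25.4% of all genes. The groups did not overlap for 13 higher and 5 lower, against 12.8% and 11.3% of all genes. Their median log2 fold change was 0.06. DESeq2 called 2 of them higher, Xab2 (0.33, adjusted p = 0.0451), which acts in transcription-coupled repair, and Rad50 (0.41, adjusted p = 0.0486), against 7.15% of all genes higher by DESeq2.

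Mismatch repair proteins recognise platinum-linked guanines without removing them. Of their 8 listed genes 7 were tested and 0 passed by edgeR. Msh6, whose protein is part of a mismatch sensor, overlapped between the groups (log2 fold change 0.08, edgeR adjusted p = 0.790).

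Pcna, the sliding clamp that recruits translesion polymerases once it carries ubiquitin, was 22.4, 24.8, 24.2 and 22.1 FPKM in saline and 30.2, 32.8 and 26.4 FPKM in DXZ. The groups did not overlap, and the log2 fold change of 0.35 ± 0.10 (SE) missed the threshold (edgeR adjusted p = 0.0765). Rad18, the ligase that attaches that ubiquitin, had a log2 fold change of 0.62 (adjusted p = 0.233), and Ube2t, the conjugating enzyme of the Fanconi core, one of 0.49 (adjusted p = 0.419). Trp53, the gene of p53, had a log2 fold change of 0.31 (adjusted p = 0.199).

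The 3 genes of the MRN complex, which senses broken DNA ends, were singled out after their values were seen. Rad50 was 2.95, 2.40, 2.58 and 2.77 FPKM in saline and 3.46, 3.68 and 3.49 FPKM in DXZ. Mre11a was also higher in every DXZ library (log2 fold changes 0.41 and 0.39). Nbn was 12.4, 11.98, 11.7 and 12.2 FPKM in saline and 9.33, 10.2 and 9.72 FPKM in DXZ, lower in every DXZ library (log2 fold change -0.30). The edgeR adjusted p were 0.0704 for Rad50, 0.114 for Mre11a and 0.0696 for Nbn, so none passed.

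Other cell types were followed by their marker lists. Genes of cycling cells summed to between 150 and 245 CPM in saline and between 175 and 309 CPM in DXZ, with 0 of 33 tested called (1 higher without saline 2). Their median log2 fold change was 0.57, and only 0.07 without DXZ 1. Mki67 had a log2 fold change of 0.94 (adjusted p = 0.463). Macrophage markers summed to between 155 and 282 CPM in saline and between 146 and 462 CPM in DXZ, and 2 of 14 rose (Cd68 and Cd14), with 0 called without saline 4 or DXZ 2, 1 without saline 2 or DXZ 3, and 2 higher and 4 lower without DXZ 1. Endothelial markers (497 to 883 CPM in saline, 164 to 947 CPM in DXZ), fibroblast and matrix markers (204.7 to 655 and 96.8 to 977 CPM) and podocyte markers (449 to 623 and 352 to 506 CPM) had 0 called. Without DXZ 1, 11 of 12 endothelial, 4 of 12 fibroblast and matrix and 2 of 8 podocyte markers were called lower. Among markers of loop, distal tubule and collecting duct, 2 of 11, Slc12a3 and Pvalb, fell, Pvalb being at 0 in DXZ 3 (2804 to 5380 and 2193 to 4283 CPM). Of these, 0 were called without saline 4 or DXZ 2, 1 without saline 2, saline 3 or DXZ 3, and 3 without DXZ 1. Over all tested genes, only 4 were called without saline 4 and 1 without DXZ 2, whatever the list. Lymphocyte markers summed to at most 8.51 CPM and neutrophil markers to at most 21.3 CPM in any library, with 0 called, and between 0 and 8 of the 13 lymphocyte markers were at 0 in a library.

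Some of the 39 genes share exon bases with a gene on the opposite strand, so their reads could be mixed if strand was not used in counting. Where it was over 10%, the share of exon bases was 26.6% for Rev1 (with Eif5b), 24.6% for Ercc2 (with Gm26852, and 17.8% with Klc3), 23.8% for Ddb2 (with Acp2), 16.4% for Fancc (with Gm16133), 15.95% for Fanci (with Polg), 14.96% for Fancf (with Gas2), 13.7% for Fancl (with Vrk2) and 10.5% for Fanca (with Zfp276). Within the shared bases of these genes, the source of the reads cannot be told apart without knowing whether strand was used.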

How the data were processed

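Whole-kidney RNA-seq was analysed from 4 saline and 3 DXZ libraries, grouped by their labels. The deposited count table holds whole-number reads per gene and library, without normalization by the authors. The deposited FPKM values equal those counts over gene length times 1 library constant, as checked on the files, and are no separate measurement. The constant is not the total of counts: for DXZ 1 it was 1.815e+07, against 16243682 counts. The submitters' processing notes name HISAT2, StringTie and mm9, giving neither versions nor roles. Of 54409 gene identifiers shared with GENCODE M21 (GRCm38), 53499 (98.3%) had the same start and end, including those of 38 of the 39 repair genes, so coordinates are given as GRCm38. How reads were counted, and whether by strand, is not given in the sources used here.

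The counts were tested with edgeR 4.0.16 in R 4.3.3: 27180 genes had a count and 15351 passed filterByExpr, libraries were scaled by TMM, and the quasi-likelihood F test was adjusted by Benjamini-Hochberg over all 15351. CPM uses the TMM-adjusted library sizes, and groups were called separate on CPM. Levels between genes were compared in FPKM. Each SE was obtained from the fold change on the log2 scale and the square root of F. The test was tried on 5 sets of simulated counts. Within groups, chi-square per degree of freedom between libraries was 15.1 to 99.1, so no library was a second copy of another's counts.

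Alternatives were median-of-ratios scaling, no filter, at least 1 CPM in 3 libraries as the filter, robust dispersion, limma 3.58.1 voom with quality weights, DESeq2 1.42.0, limma on log2(FPKM + 1) or log2(FPKM + 0.1) (mean FPKM at least 0.1), the replicate number as a block, each library left out, and saline 1 with DXZ 1 left out. All 39 genes are accounted for. Of the other repair genes, the rule named those called (up to 12) and always Pcna, Msh6, Ube2t, Trp53 and Rad18, plus 3 genes that are not reported here. The 39 genes, the other lists and the rule were chosen with earlier results of these data known. Promoter windows are from RefSeq (GRCm38.p6).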

Additional observations from a re-analysis of the deposited data

Results flagged for a closer look

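Brip1 stood at 2.56 CPM in saline 2, far from the other saline libraries: the gap to its nearest neighbour was 0.842 of the range of the 4 libraries, above Dixon's 95% critical value for 4 values. The 36 tested repair genes were checked in this way, and chance flags about 5% of such groups.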

How the results depend on the processing

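The number of the 36 repair genes called higher was 2 in every setting but the replicate block (1, Ercc1 lost at 1.45, adjusted p = 0.0819) and the omission of 1 library (0 to 2: 0 without saline 4 or DXZ 2, 1 without saline 2 or DXZ 3); 0 were called lower in any setting. The median log2 fold change of the set ran from 0.028 to 0.093 with 1 library left out, lowest without DXZ 2. Among the other repair genes, DESeq2 called 2 higher. The count over all tested genes was 853, and 2027 with DESeq2, 543 on log2(FPKM + 1), 85 with the replicate block, 1332 without saline 1 and DXZ 1, and 1 to 1574 with 1 library left out (1 without DXZ 2, 4 without saline 4). The libraries share only a number: the deviations of same-numbered libraries correlated at 0.258, -0.088 and 0.226.

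Some estimates of genes not called changed sign. With voom, Polh was -0.0074 and Atr 0.025. With the replicate block, Msh6 was -0.020. Without saline 1 and DXZ 1, Xrcc3 was 0.064, Polh -0.11, Atr 0.13, Fanca -0.052, Fancm 0.041 and Msh6 -0.018. With 1 library left out, values ran from -0.11 to 0.076 for Atr, -0.097 to 0.30 for Fanca, -0.17 to 0.050 for Fancm, -0.30 to 0.082 for Xrcc3, -0.028 to 0.17 for Msh6, -0.054 to 0.17 for Polh, -0.042 to 0.35 for Xpa, -0.050 to 0.26 for Rev3l, -0.065 to 0.19 for Rev1, -0.22 to 0.071 for Ercc2 and -0.13 to 0.021 for Rad51d. The cause of these changes was not tested. Depth limits Eme1, Fanci and Fancd2, whose reads were too few to test.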
